A study of Mus musculus with 32 samples.

Results

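The acute-phase response was followed through 10 transcripts for liver-made plasma proteins, Saa1, Saa2, Saa3, Lcn2, Orm1, Orm2, Hp, Hpx, Apcs and Itih4, taken by name from the 20076 genes of the count table. RNA labelled as liver had been sequenced from 32 male C57BL/6J mice in 8 groups of 4, but 1 library, labelled KO HF fasted replicate 4, held heart RNA by its markers. MCAD-KO mice (KO), which lack Acadm and so medium-chain acyl-CoA dehydrogenase, an enzyme of mitochondrial fatty-acid oxidation, were compared with wild-type littermates (WT). All mice had received a low-fat control diet (LF) or a high-fat semisynthetic diet (HF) for 6 weeks and were then fasted for 16 h or left on the diet (fed). The labels give ages from 7.5 to 16 with no unit, and the knockout is in all cells of the mouse. WT LF fed replicate 2 and KO HF fasted replicate 4 were left out of all comparisons unless stated, which left 30 mice, with 3 in each of those groups. KO HF fasted replicate 3, the mouse with the strongest acute-phase values, was kept, and the tests of the members are also given without it, over 29 mice, where stated.

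The acute-phase response is the change in the set of plasma proteins that the liver secretes during infection or injury. Interleukin-6 acting through STAT3 drives many of its genes, and interleukin-1 and tumour necrosis factor acting through NF-kB and C/EBP factors drive another set that includes the serum amyloid A genes. Glucocorticoids, which also rise during fasting, strengthen the induction of several of them. Serum amyloid A and lipocalin-2 are known as the most inducible members in mouse liver, whereas haptoglobin and hemopexin are abundant in plasma at rest.

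The libraries held between 2031053 and 4292200 counts, with a median of 2899001. Acadm, the targeted gene, ran from 8.99 to 36.7 CPM (counts scaled to library size with TMM factors) in the 15 KO mice and from 190 to 737 CPM in the 15 WT mice. Summed over 12 hepatocyte markers, the 30 mice lay between 46060 and 66988 CPM, whereas the left-out libraries of the KO HF fasted and WT LF fed groups lay at 849 and 34767 CPM. Heart markers, 12 in all, reached 39657 CPM in the former library and 231 CPM at most in the mice used, so that the former goes against its liver label. Genes of acinar pancreas summed to 17272 CPM in WT HF fasted replicate 2 and to 2511 CPM in KO HF fed replicate 1. In whole liver, fewer cells of a type and less RNA per cell cannot be told apart.

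Promoters are shown for Saa1, Saa2, Saa3 and Lcn2, the 4 members with the largest HF minus LF values in fasted mice. Each runs from 250 bases before to 50 bases after the gene start in RefSeq (build GRCm38.p6), and capitals mark matches to TTGCNNAA, the letters bound by C/EBP factors, on either strand. The Saa1 window is chr7:46742931-46743230, minus strand, that of Saa2 chr7:46751583-46751882, plus strand, that of Saa3 chr7:46715627-46715926, minus strand, and that of Lcn2 chr2:32387690-32387989, minus strand.

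Saa1: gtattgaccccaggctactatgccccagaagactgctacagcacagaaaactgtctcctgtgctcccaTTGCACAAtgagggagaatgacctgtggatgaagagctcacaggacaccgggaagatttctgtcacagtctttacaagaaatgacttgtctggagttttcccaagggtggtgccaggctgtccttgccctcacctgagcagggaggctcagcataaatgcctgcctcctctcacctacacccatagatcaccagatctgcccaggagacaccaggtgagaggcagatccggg

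Saa2: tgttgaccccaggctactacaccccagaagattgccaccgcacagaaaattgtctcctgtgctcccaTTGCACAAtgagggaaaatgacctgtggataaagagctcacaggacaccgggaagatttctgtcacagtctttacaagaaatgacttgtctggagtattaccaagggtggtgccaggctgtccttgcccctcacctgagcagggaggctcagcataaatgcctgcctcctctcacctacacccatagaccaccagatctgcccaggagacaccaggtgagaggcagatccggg

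Saa3: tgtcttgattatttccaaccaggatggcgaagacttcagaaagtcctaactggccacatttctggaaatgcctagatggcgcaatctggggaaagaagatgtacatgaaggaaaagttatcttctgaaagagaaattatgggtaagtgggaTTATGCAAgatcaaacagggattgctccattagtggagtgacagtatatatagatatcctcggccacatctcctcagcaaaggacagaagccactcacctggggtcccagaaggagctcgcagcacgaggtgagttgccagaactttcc

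Lcn2: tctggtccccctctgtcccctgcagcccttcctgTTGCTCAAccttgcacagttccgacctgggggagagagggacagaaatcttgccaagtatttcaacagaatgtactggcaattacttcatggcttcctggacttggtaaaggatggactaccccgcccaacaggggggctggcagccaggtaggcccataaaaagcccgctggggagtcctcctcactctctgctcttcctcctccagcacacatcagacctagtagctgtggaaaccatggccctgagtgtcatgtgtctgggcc

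Each of these 4 windows held 1 match to TTGCNNAA, and 10.8% of the 32851 promoters in the table held at least 1. The Saa1 and Saa2 windows, which belong to neighbouring genes on chromosome 7, carried the same 8 letters, TTGCACAA, and were identical at 287 of 299 aligned bases (96%). Saa3 was identical to Saa1 at 59.8% of aligned bases, close to the 58.4% of Saa1 with Lcn2 by the same alignment. None of the 4 windows matched TTCNNNGAA (STAT, in 8.3% of all promoters) or CTGGGAA (type II interleukin-6 response element, in 11.14%), each searched on both strands. None matched the 1 NF-kB pattern searched (in 4.79%), also on both strands. That pattern fixes more letters than looser forms of the NF-kB consensus, which were not searched. A match to a looser form in these windows is thus not excluded. Of the other 4 members with a window, Orm2 and Hpx also held a TTGCNNAA match, Apcs held 1 STAT match and 2 matches to CTGGGAA, and Itih4 held 1 STAT match. Orm1 and Hp had no entry. These matches are letters in a window and not binding sites.

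Serum amyloid A proteins are apolipoproteins of high-density lipoprotein. Saa1 (chromosome 7, 46740497 to 46742980, minus strand) was measured at 70.8, 87.4 and 112 CPM in the WT LF fed mice and at 59.7, 66.5, 45.6 and 349 CPM in the KO LF fed mice. The WT LF fasted mice held 69.1, 37.2, 48.5 and 94.5 CPM and the KO LF fasted mice 42.9, 38.4, 77.3 and 49.9 CPM. All 8 LF fasted mice were thus under 100 CPM, and 1 KO LF fed mouse stood above the other fed mice. The WT HF fed mice held 76.1, 225, 140 and 122 CPM, the KO HF fed mice 153, 87.8, 124 and 72.6 CPM, and the WT HF fasted mice 55.6, 81.4, 98.5 and 237 CPM. The KO HF fasted mice held 242, 100 and 1677 CPM, and the last of these, replicate 3, was 4.8 times the next highest of the 30 mice. Every pair of groups overlapped in range with that mouse left out, except the KO HF fasted mice with the WT and KO LF fasted mice, which they exceeded.

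Saa2 (chromosome 7, 46751790 to 46754313, plus strand) lies next to it. Its Spearman correlation with Saa1 was 0.90 over the 30 mice and 0.89 over the 29, given as a description of shared libraries. Saa2 averaged 35.3 ± 19.4 CPM (SD, n = 7) in LF fed mice of both genotypes and 15.2 ± 6.71 CPM (n = 8) in LF fasted mice. It averaged 50.1 ± 17.5 CPM (n = 8) in HF fed mice and 51.1 ± 29.3 CPM (n = 6) in HF fasted mice without replicate 3, which itself held 362 CPM. The 4 KO LF fasted mice, at 13.1, 10.3, 14.4 and 6.57 CPM, were below all 4 KO LF fed mice, at 22.7, 33.2, 21.1 and 76.3 CPM. Of the 451 words of 50 bases in the last 500 bases of the Saa1 transcript, 24 also occur in Saa2, and the number of reads that this affects was not measured.

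Saa3 (chromosome 7, 46711998 to 46715700, minus strand), which in mice is made by macrophages and fat as well as liver, did not single out KO HF fasted replicate 3. That mouse held 17 CPM, and 5 of the other mice were higher, led by WT HF fasted replicate 4 at 40.4 CPM. The KO LF fasted mice were the lowest group, at 7, 4.9, 5.67 and 3.48 CPM, and overlapped the WT HF fasted mice, which held 6.02, 19.6, 12.6 and 40.4 CPM. Counts were small, from 9 to 106 reads a mouse. Of the words at its transcript end, 12.42% also occur in other genes.

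Lipocalin-2, which binds bacterial siderophores, and the orosomucoids, which carry drugs and lipids, belong to 1 protein family. Lcn2 (chromosome 2, 32384633 to 32388252, minus strand) was low in all groups but for 1 mouse. Its 8 LF fasted mice ran from 0.516 to 5.25 CPM with a median of 1.91, and its 7 LF fed mice from 0.969 to 7.9 CPM with a median of 1.3. The 8 HF fed mice ran from 2.7 to 8.99 CPM and the WT HF fasted mice held 5.2, 3.39, 5.15 and 8.38 CPM. The KO HF fasted mice held 6.8, 9.51 and 58.5 CPM, so that replicate 3, with 217 reads, was 6.15 times the next highest mouse. Elsewhere Lcn2 rested on 1 to 28 reads a mouse.

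Orm1 (chromosome 4, 63344560 to 63348163, plus strand) ran from 190 to 482 CPM over the 30 mice, with group means between 235 ± 42.6 CPM (n = 4) in WT HF fasted and 375 ± 74.1 CPM (n = 3) in KO HF fasted mice. Its neighbour Orm2 had 0 to 21 reads a mouse, with 3 or fewer in 14 of the 30, and did not pass the filter on low counts, so that 9 of the 10 members were tested. Orm2 was highest in KO LF fed replicate 4 (6.18 CPM) and KO HF fasted replicate 3 (5.66 CPM). Of the words at the end of Orm1, 32.59% are shared with Orm2 or Orm3, so that the split of reads among them is uncertain.

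Haptoglobin binds free haemoglobin. Hp (chromosome 8, 109575128 to 109579172, minus strand) was measured at 283, 356 and 328 CPM in WT LF fed mice and at 859, 909, 667 and 614 CPM in WT LF fasted mice. It was measured at 362, 409, 288 and 420 CPM in KO LF fed mice and at 1015, 769, 840 and 721 CPM in KO LF fasted mice. On LF every fasted mouse of both genotypes was above every fed mouse. On HF the fed WT mice held 371, 629, 352 and 400 CPM and the fasted WT mice 509, 407, 490 and 573 CPM, and the ranges overlapped. The fed KO HF mice held 403, 399, 421 and 394 CPM and the fasted KO HF mice 489, 576 and 1150 CPM, with no overlap.

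**Figure D1:**
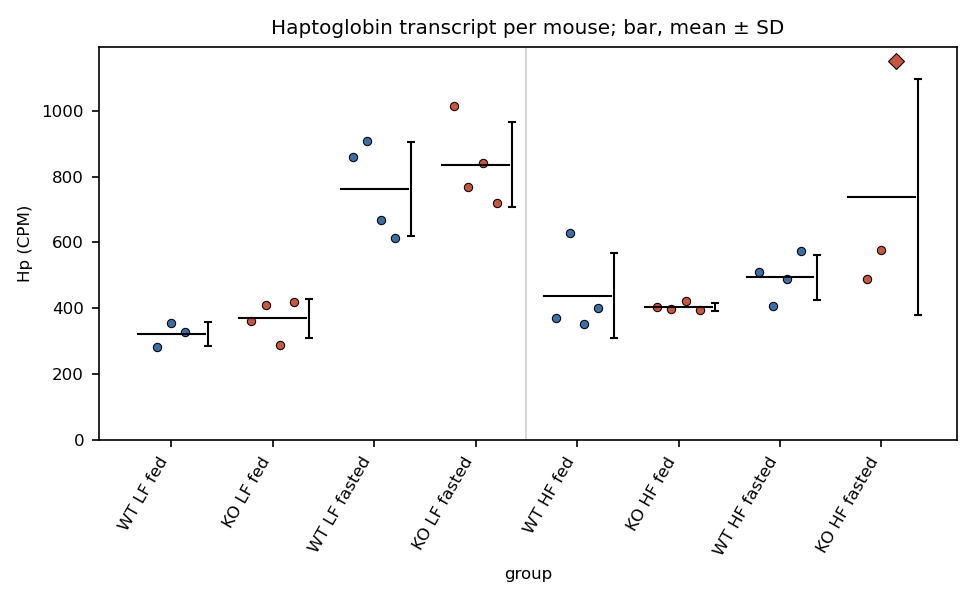
Hp in CPM for each mouse (points, 3 or 4 a group; blue WT, red KO; diamond KO HF fasted replicate 3), with the group mean (line) and SD (bar at its right). The 8 LF fasted mice lie between 614 and 1015 CPM, above all 7 LF fed mice, while on HF the 6 fasted mice other than replicate 3 lie between 407 and 576 CPM.

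Hemopexin binds free haem. Hpx (chromosome 7, 105591613 to 105600137, minus strand) ran from 713 CPM in KO LF fasted replicate 1 to 2895 CPM in KO HF fasted replicate 3, with a median over the other 29 mice of 1556 CPM. The count table holds the same Hpx count, 4824 reads, for 4 mice: WT LF fasted replicate 1, KO HF fed replicate 3, WT HF fasted replicate 4 and KO HF fasted replicate 2. That number stands nowhere else in the table, and of the 350 genes with a median above 1000 counts Hpx was the only 1 with the same count in 4 or more mice. Whether these 4 counts are independent measurements cannot be read from the table. Their CPM, from 1447 to 1838, lay within the range of the other mice. With edgeR, Hpx was called in none of the comparisons given here over 30 mice, and without these 4 mice its averaged fasting value was 0.03 (adjusted p = 0.926) and its diet value 0.16 (adjusted p = 0.683).

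Serum amyloid P, a pentraxin, is encoded by Apcs, and Itih4 encodes a heavy chain of the inter-alpha-trypsin inhibitor family. Apcs (chromosome 1, 172893961 to 172895041, minus strand) lay between 37.6 and 146 CPM in 29 mice and at 285 CPM in KO HF fasted replicate 3. Itih4 (chromosome 14, 30886476 to 30902353, plus strand) lay between 428 and 1055 CPM in 29 mice and at 1357 CPM in the same mouse.

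**Figure D2:**
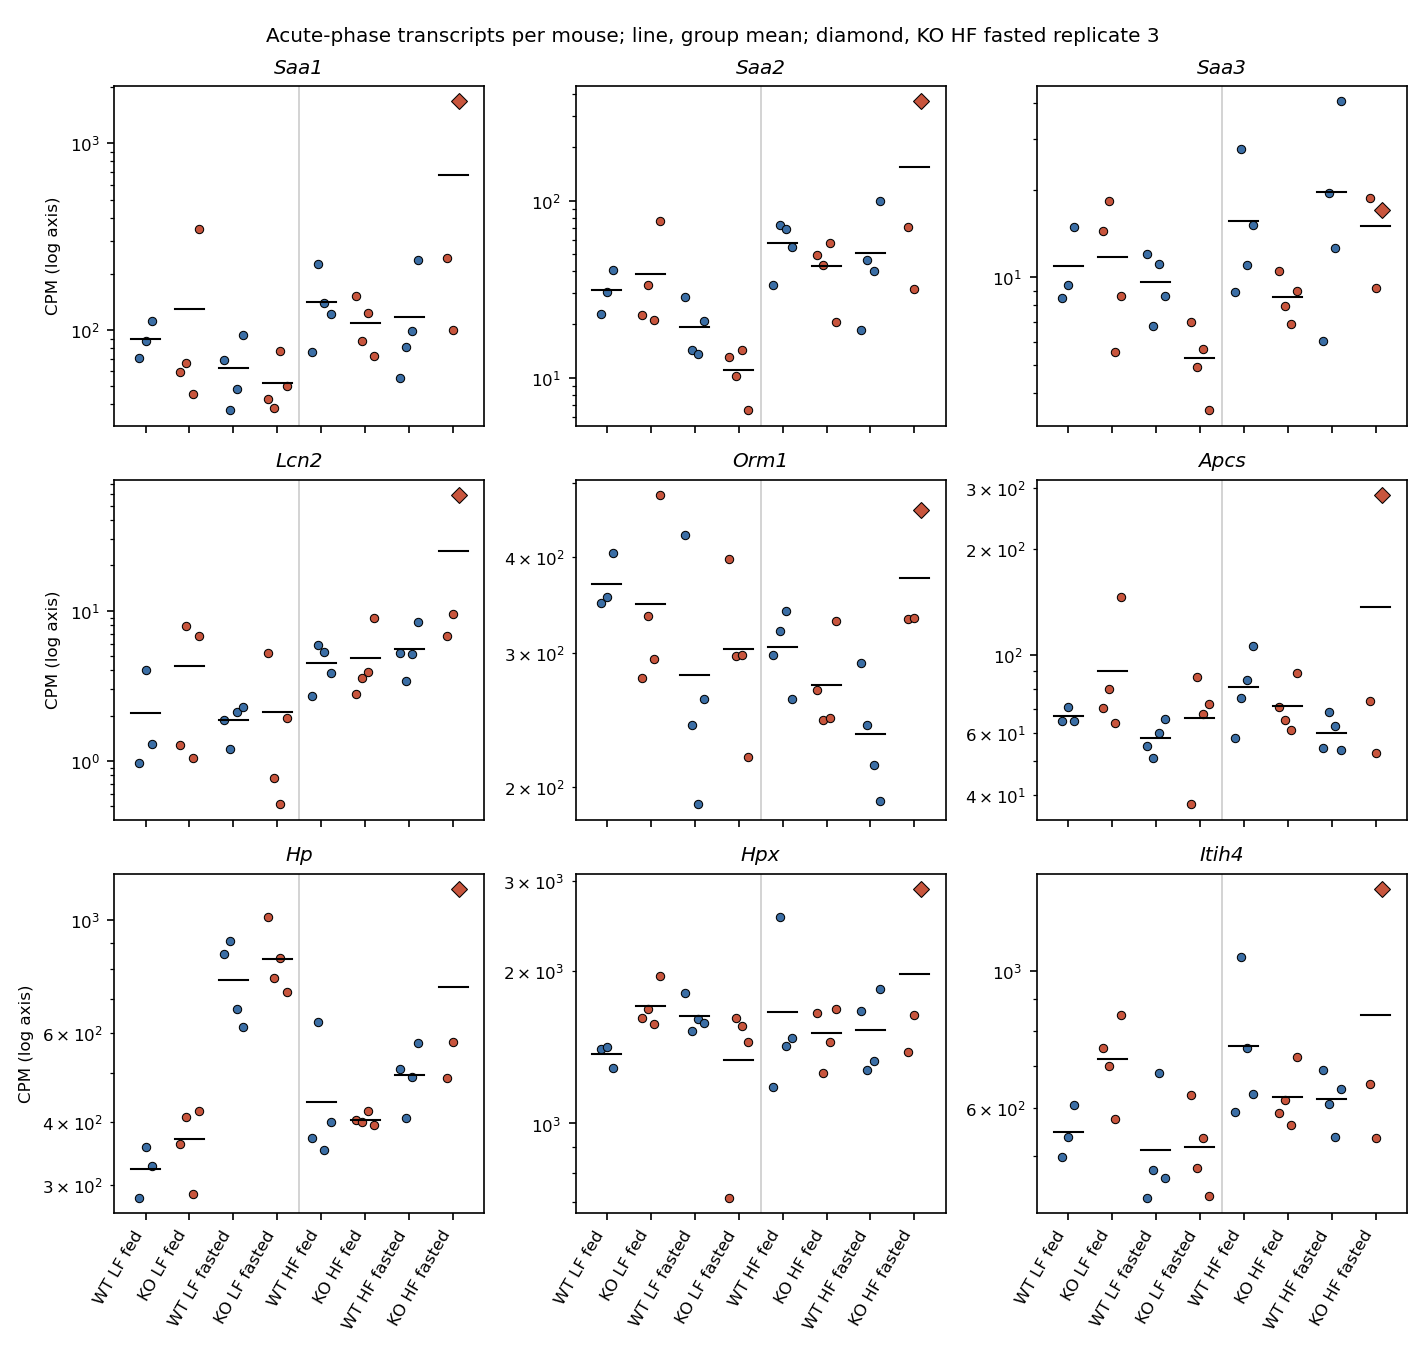
CPM of the 9 tested members (panels, log axis) for each of the 30 mice, by group (blue WT, red KO; line, group mean; diamond, KO HF fasted replicate 3; LF left and HF right of the vertical line). The diamond is the highest value for Saa1, Saa2, Lcn2, Hp, Hpx, Apcs and Itih4, and Hp alone separates LF fasted from LF fed mice.

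Fasting was tested as the fasted minus fed difference averaged over the 4 genotype and diet pairs. Hp rose, by 0.87 on the log2 scale (standard error 0.11, adjusted p = 5.10e-08 in the quasi-likelihood fit of edgeR, adjusted over 11566 genes by Benjamini-Hochberg), and was the 1 member of 9 called at an adjusted p under 0.05. Of all genes tested 18.9% were called. The other 8 members lay between -0.20 (Saa2) and 0.39 (Lcn2) on the log2 scale, with adjusted p from 0.472 to 0.935. Over 29 mice Hp rose by 0.75 (adjusted p = 8.63e-08) and was again the 1 member called, against 16.7% of all genes.

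On LF Hp rose by 1.22 on the log2 scale, or 2.33-fold (adjusted p = 1.04e-07), the 1 member called against 19.4% of all genes, and it rose in both genotypes, by 1.25 in WT (adjusted p = 2.14e-04) and by 1.18 in KO mice (adjusted p = 7.00e-05). Over 29 mice the LF value was 1.22 (adjusted p = 4.69e-09), with 1.25 in WT (adjusted p = 2.23e-05) and 1.18 in KO mice (adjusted p = 6.10e-06). KO HF fasted replicate 3 is in no LF group, so that leaving it out could change little here but the estimate of spread. The fit over 29 mice is thus no separate test of the LF value. The exact two-sided permutation test of fasted against fed mice gave p = 0.0286, the smallest p these groups allow, for Hp in WT LF, KO LF and KO HF mice and p = 0.4 in WT HF mice. Of the other members, each tested in the same 4 pairs of groups with no adjustment, Saa2 in KO LF mice (lower in fasted mice) and Hpx in WT LF mice (higher in fasted mice) also had an exact p of 0.0286. On HF it rose by 0.52 (adjusted p = 0.0447), again the 1 member called, against 2.62% of all genes, but without replicate 3 the value was 0.29 (adjusted p = 0.48). Of the 30 fits that each left out 1 mouse, 12 kept that call. The labels name 2 sequencing lanes, 7 and 8, with 2 and 5 LF fed mice. The within-lane difference of mean log2 values on LF was 1.18 on lane 7 and 1.01 on lane 8, genotypes pooled. All 3 WT LF fed mice used were on lane 8. The lane 7 value thus set KO LF fed mice against LF fasted mice of both genotypes, and holds no within-lane comparison for WT.

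The difference between the diets in the response to fasting was tested directly. For Hp it was -0.70 (standard error 0.21, adjusted p = 0.0725) over 30 mice and -0.93 (standard error 0.19, adjusted p = 0.00437) over 29, so that the call depends on KO HF fasted replicate 3. Over 30 mice edgeR called 0 of the 9 members, with 5 at an unadjusted p under 0.05, against 2.46% of all genes called. DESeq2 called 2, Hp and Saa2, and limma voom called Hp. The shares of all genes called by these tools are not given here or below, so that their counts have no background beside them. Over 29 mice edgeR called Hp, against 2.1% of all genes. For Saa1, Saa2, Saa3 and Lcn2 the difference had the opposite sign, from 1.22 to 2.11 over 30 mice and from 1.08 to 1.28 over 29 mice.

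Of the serum amyloid A genes, Saa2 had a fasted minus fed value on LF of -1.24 over 30 mice (adjusted p = 0.0678), not called. The value was also -1.24 over 29 mice (adjusted p = 0.0169), where Saa2 and Hp were called against 18.7% of all genes. The standard error was 0.47 over 30 mice and 0.36 over 29. KO HF fasted replicate 3 is in no LF group, so that the call over 29 mice came with a smaller estimate of spread and not with another LF value. KO HF fasted replicate 2, also in no LF group, was the other mouse without which Saa2 was called. Saa1 stood at -0.92 (adjusted p = 0.247) and at -0.32 without KO LF fed replicate 4, the fed mouse with 349 CPM.

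Diet was tested as the HF minus LF difference averaged over genotype and feeding state. Lcn2 rose by 1.61 on the log2 scale (standard error 0.36, adjusted p = 0.00785) and Saa2 by 1.56 (standard error 0.32, adjusted p = 0.00649), the 2 members called, against 3.49% of all genes. Over 29 mice both were called again, Lcn2 at 1.2 (adjusted p = 0.0339) and Saa2 at 1.16 (adjusted p = 0.014), against 2.5% of all genes. Saa1 stood at 1.25 (adjusted p = 0.0635) over 30 mice and at 0.75 (adjusted p = 0.245) over 29. DESeq2 called Saa1 too over 30 mice, at 1.25 (adjusted p = 0.0118), and so 3 members, whereas limma voom called Lcn2 and Saa2. Saa3 stood at 0.65 (adjusted p = 0.0991) and Itih4 at 0.31 (adjusted p = 0.115). With all 32 mice no member was called, and Lcn2 was at 1.11 (adjusted p = 0.29). That fit added both left-out libraries. WT LF fed replicate 2 held 18.4 CPM of Lcn2, and the heart library, KO HF fasted replicate 4, held 0.608 CPM. No fit added only 1 of them, so that their parts in the loss of calls cannot be told apart.

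Diet was also tested within fasted and within fed mice. In fasted mice edgeR called 5 of the 9 members higher on HF, Saa1 by 2.30 (adjusted p = 0.00904), Saa2 by 2.60 (adjusted p = 9.82e-04), Saa3 by 1.26 (adjusted p = 0.0103), Lcn2 by 2.55 (adjusted p = 0.00133) and Itih4 by 0.49 (adjusted p = 0.046), against 6.65% of all genes. Over 29 mice Saa2 rose by 1.80 (adjusted p = 0.00592), Lcn2 by 1.74 (adjusted p = 0.0234) and Saa3 by 1.21 (adjusted p = 0.0309), whereas Saa1 was at 1.31 (adjusted p = 0.103) and Itih4 at 0.23 (adjusted p = 0.444). Itih4 was called in 11 of the 30 fits that each left out 1 mouse. Sums over markers of other cell types are given for the same mice. The summed level of 6 adipose genes, of which Car3 and Cidec are also made by hepatocytes, was 164 to 438 CPM in LF fasted and 746 to 2329 CPM in HF fasted mice, with no overlap and none of the 6 at 0 throughout. In fed mice the adipose sum was higher, at 2039 to 2378 CPM on LF and 2287 to 3644 CPM on HF, with overlap. The 5 monocyte genes summed to 51.4 to 98.2 CPM in LF fasted and 79.5 to 154 CPM in HF fasted mice. The 11 macrophage genes summed to 323 to 749 and 370 to 835 CPM, and for both of these lists the ranges overlapped. Their part in the Saa and Lcn2 values was not tested. Hp had the other sign, at -0.41 (adjusted p = 0.1) over 30 mice, and was not called. Over 29 mice it was called at -0.64 (adjusted p = 0.00332), and 4.42% of all genes were called. Of the 30 fits that each left out 1 mouse, that was the only 1 with this call. The mouse left out there, KO HF fasted replicate 3, had the highest Hp of all. In fed mice 0 of 9 members were called by edgeR, with 1 at an unadjusted p under 0.05, by DESeq2 or by limma voom, against 0.268% of all genes. The values for fed mice were 0.52 for Saa2 and 0.66 for Lcn2. The direct test of the difference between feeding states is the diet by fasting difference above. By edgeR over 30 mice its adjusted p was 0.0927 for Saa2, 0.151 for Saa1, 0.156 for Saa3 and 0.203 for Lcn2. By edgeR it thus did not place the diet effect of these members in fasted mice alone.

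The HF minus LF values of Saa1, Saa2, Saa3 and Lcn2 in fasted mice were above 0 in both lanes. For Saa2 the difference of mean log2 values was 1.25 on lane 7 and 3.09 on lane 8, or 2.25 on lane 8 without replicate 3. For Lcn2 it was 1.44 on lane 7 and 2.28 on lane 8, or 1.29 without replicate 3. For Hp it was -0.83 on lane 7 but 0.04 on lane 8, or -0.33 on lane 8 without replicate 3. Without WT HF fasted replicate 2, the mouse with pancreas genes, Saa2 stood at 2.62 (adjusted p = 0.00199) and Lcn2 at 2.63 (adjusted p = 0.00177). Within WT mice alone the fasted values were 1.38 for Saa2 (adjusted p = 0.36) and 1.52 for Lcn2 (adjusted p = 0.374), and within KO mice without replicate 3 they were 2.22 (adjusted p = 0.0894) and 1.95 (adjusted p = 0.254).

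**Figure D3:**
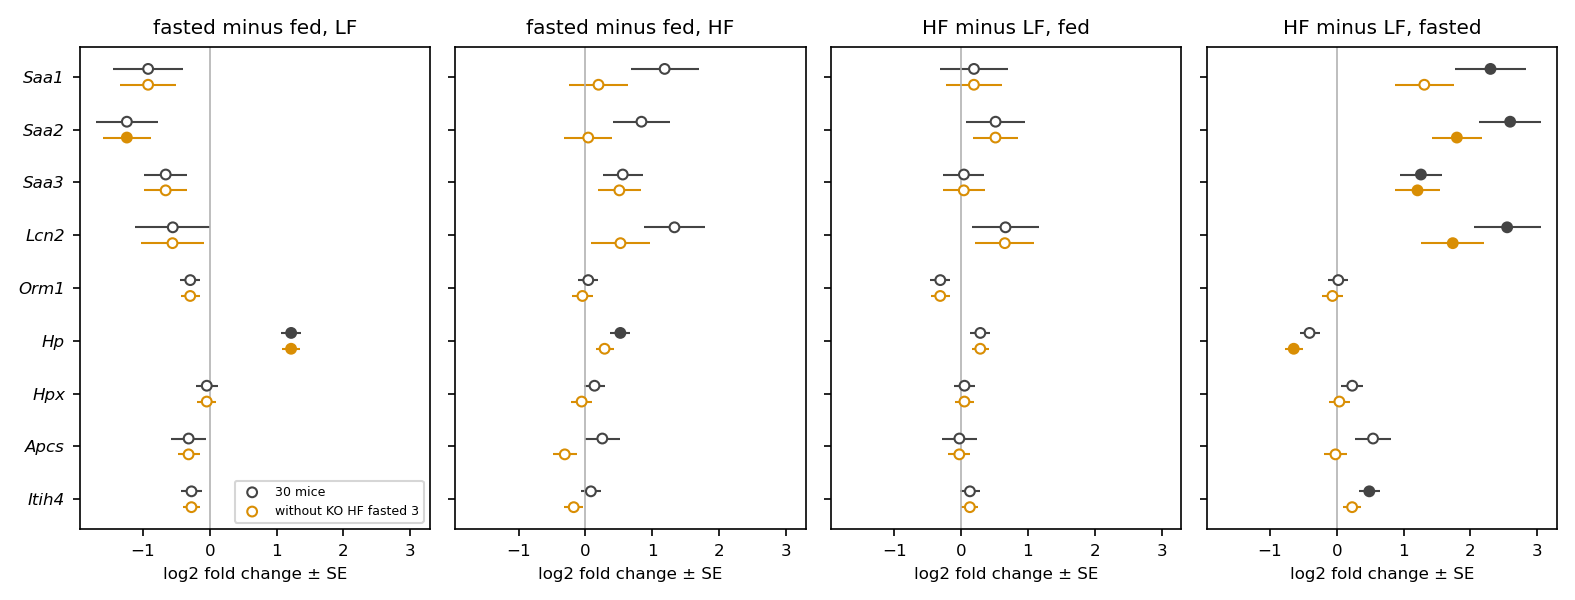
Log2 fold change (x axis, with its standard error) of the 9 tested members for fasting on LF and HF and for diet in fed and fasted mice, over 30 mice (grey) and without KO HF fasted replicate 3 (orange); filled points have an adjusted p under 0.05. Saa2 and Lcn2 stay filled in the HF minus LF panel of fasted mice, at 1.80 and 1.74 without that mouse, and Hp is filled for fasting on LF in both fits.

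Genotype was compared over all conditions and in the HF fasted condition. Averaged over conditions, edgeR called 0 of 9 members, with 3 at an unadjusted p under 0.05, against 0.00865% of all genes, which is Acadm alone. Over 29 mice the averaged values ran from -0.52 for Saa3 to 0.46 for Lcn2, with an adjusted p of 1 for each member. In HF fasted mice the KO minus WT values over 30 mice were 2.51 for Saa1, 2.18 for Lcn2, 1.62 for Saa2 and 1.2 for Apcs, with an adjusted p of 0.999 for each. Again 0 of 9 members were called, with 6 at an unadjusted p under 0.05, against 0.00865% of all genes. Without replicate 3 these values were 0.53 for Saa1, 0.55 for Lcn2, 0.02 for Saa2 and 0.07 for Apcs. The difference between genotypes in the response to fasting had 0 of 9 members called by edgeR, with 1 at an unadjusted p under 0.05, against 0% of all genes. DESeq2 and limma voom also called 0 members in each of these 3 comparisons.

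KO HF fasted replicate 3 was highest of the 30 mice for 7 of the 10 members. Relative to the median of the other 29 mice it held 20.6 times the Saa1 level, 16.4 times that of Lcn2, 11.3 times that of Saa2 and 4.35 times that of Apcs. For Hp, Itih4, Hpx and Orm1 the ratios were 2.73, 2.24, 1.86 and 1.55, and for Saa3 1.85. The list of 30 other positive acute-phase genes summed to 55722 CPM in this mouse and to between 27330 and 45481 CPM in the others. The negative acute-phase list was also highest there, at 73451 CPM against at most 65090 CPM.

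**Figure D4:**
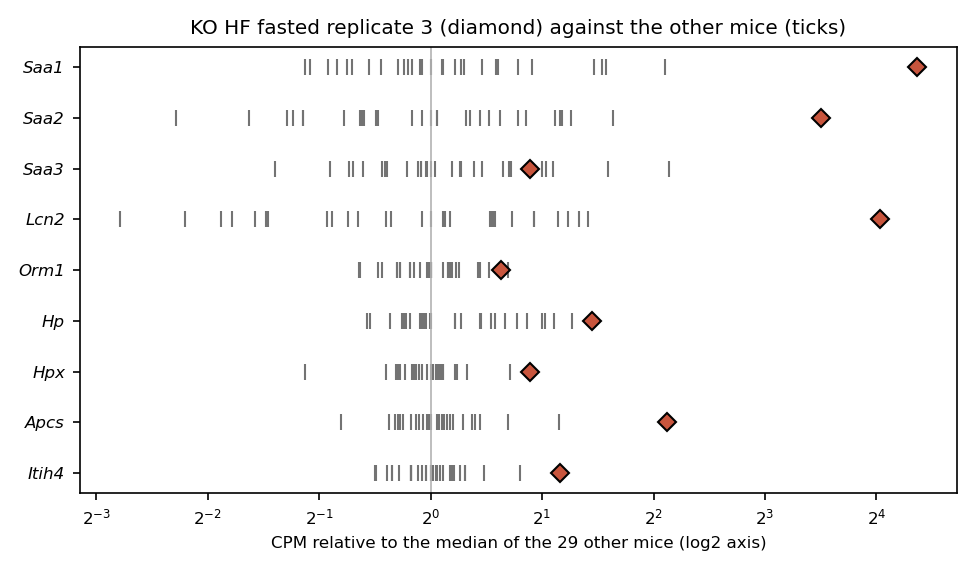
Level of each tested member in each mouse relative to the median of the 29 mice other than KO HF fasted replicate 3 (log2 axis; ticks, the 29 mice; diamond, replicate 3). The diamond lies at 20.6 for Saa1 and 16.4 for Lcn2, beyond all ticks, but among the ticks for Saa3 (1.85) and Orm1 (1.55).

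Markers of immune cells in that mouse are given beside these values. The 9 neutrophil genes present in the table of a list of 11 summed to 27.2 CPM there and to between 4.13 and 23.9 CPM in the other mice. S100a9 was highest there, at 11.1 CPM against at most 8.09 CPM, whereas 2 mice exceeded its S100a8. Csf3r had 18 reads there against a median of 5 in the others, with 1 mouse above in CPM, and Retnlg had 7 against a median of 1, with 3 above. Elane had 1 read there, and Camp, Ngp, Ltf and Cxcr2 had 0, as in most mice. The macrophage list, at 410 CPM, was exceeded by 23 mice, the monocyte list by 17 and the lymphocyte and plasma cell list by 25. The part of these cells in the member values was not tested. Of the cytokines, Il6 had 0 reads in this mouse and at most 2 in any, and Il1b had 55 reads (14.8 CPM), exceeded by 1 mouse in CPM.

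Members varied together to different degrees. Over the 36 pairs of tested members the median Spearman correlation was 0.26 across 30 mice and 0.19 across 29. The 3 serum amyloid A genes and Lcn2 gave 0.48 to 0.90 across 30 mice and Hp gave values from -0.24 (with Saa2) to 0.32 (with Hpx). These values share libraries, normalization and the study's groups and are a description. The non-member genes closest to the mean standardized level of the members were Mpeg1 (0.72), which encodes a pore-forming protein of macrophages, Ldhd (0.70), Rgs10 (0.68), Cd52 (0.65) and Mcl1 (0.64), over 30 mice. Over 29 mice Mpeg1 stood at 0.73 and was again closest.

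**Figure D5:**
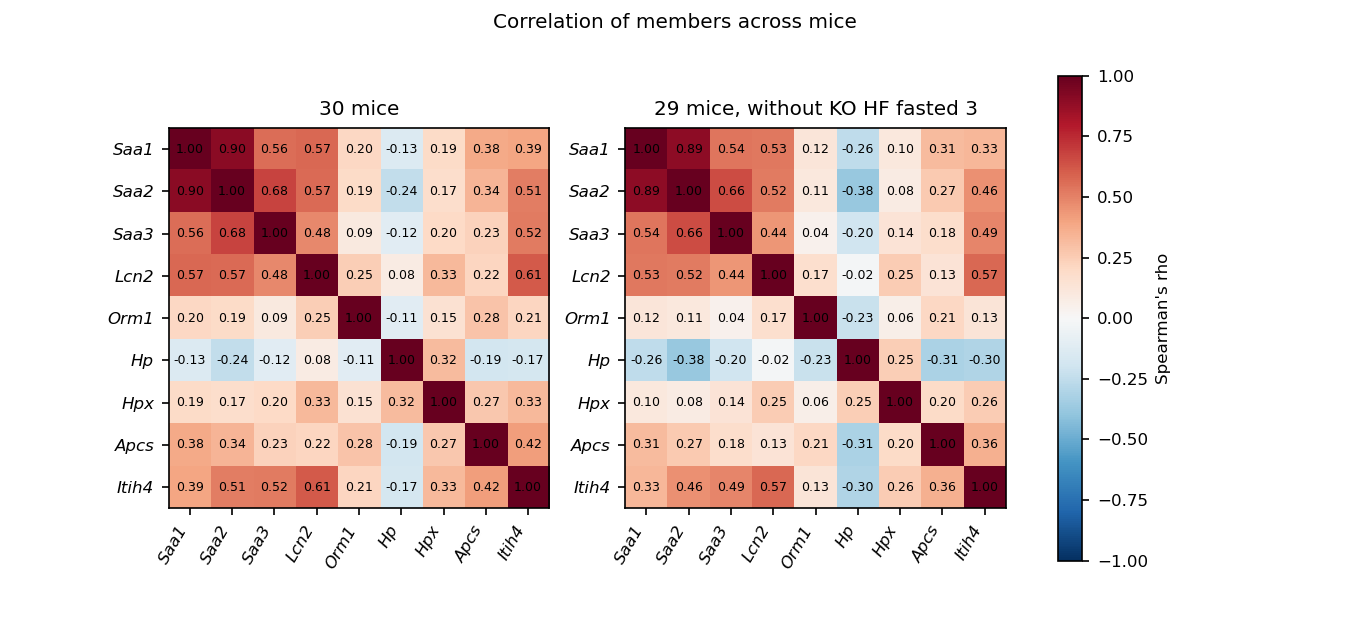
Spearman correlation (number and colour) between the tested members across 30 mice (left) and across 29 mice without KO HF fasted replicate 3 (right). Saa1 and Saa2 have the highest value in both panels, 0.90 and 0.89, and the row of Hp is mostly below 0.

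Other genes of the response are given by list, to be read against 18.9% of all genes called on fasting and 3.49% on diet. The list genes named below as called on either kept that call over 29 mice, except Bcl3 and Lpin1. Of 27 tested among 30 other positive acute-phase genes, 9 rose and 5 fell on fasting, with a list median of 0.15 against -0.0022 over all genes. Without replicate 3 these counts were 8 and 7. Lbp, the lipopolysaccharide-binding protein, rose by 1.01 (adjusted p = 7.35e-10), Lrg1 by 0.86 (adjusted p = 1.31e-05) and Il1rn, the interleukin-1 receptor antagonist, by 1.55 (adjusted p = 1.37e-04). Mbl2, a mannose-binding lectin of complement, fell by 0.59 (adjusted p = 1.50e-06). On diet 4 of this list rose and 2 fell. Without replicate 3 the diet counts were 3 and 1, against 2.5% of all genes called. Saa4, the constitutive serum amyloid A gene, rose on HF by 0.83 (adjusted p = 0.0034), Mbl2 rose by 0.51 (adjusted p = 2.74e-04) and Serpina3k fell by 0.44 (adjusted p = 0.00329). In fasted mice Saa4 rose on HF by 1.2 (adjusted p = 0.00149) and by 1.12 without replicate 3 (adjusted p = 0.00767).

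Of the 12 negative acute-phase genes, which fall in inflammation, 2 rose and 3 fell on fasting, against 18.9% of all genes called, and the counts were the same over 29 mice. Rbp4, the plasma retinol carrier, rose by 0.53 (adjusted p = 2.74e-06) and Apoa1 by 0.54 (adjusted p = 1.24e-05), whereas Serpina6, which encodes corticosteroid-binding globulin, fell by 1.27 (adjusted p = 5.98e-05) and Trf, transferrin, by 0.36 (adjusted p = 3.55e-04). On HF 1 rose, Serpina6 by 0.81 (adjusted p = 0.028), and 2 fell, Apom by 0.50 (adjusted p = 0.00121) and F12 by 0.33 (adjusted p = 0.0136).

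Of 25 receptors and signal carriers, 5 rose and 2 fell on fasting, against 18.9% of all genes called, and 4 rose and 2 fell over 29 mice. Il6ra, the interleukin-6 receptor, rose by 1.19 (adjusted p = 4.38e-08), Cebpd by 1.37 (adjusted p = 1.39e-04) and Creb3l3, a liver transcription factor of fasting and the acute phase, by 0.82 (adjusted p = 8.93e-09), while Lifr fell by 0.72 (adjusted p = 2.85e-04). Cebpd was lower on HF in fasted mice, by a log2 value of -1.10 (adjusted p = 0.0451) and of -1.63 without replicate 3 (adjusted p = 0.00235). Of 12 tested feedback inhibitors and immediate targets, Nfkbia rose by 0.47 (adjusted p = 9.76e-05), Gadd45b rose by 2.75 (adjusted p = 1.36e-04) and Cish fell by 1.90 (adjusted p = 0.00116) on fasting, and Bcl3, a partner of NF-kB, rose by 0.79 on HF (adjusted p = 0.0384). Without replicate 3 Bcl3 was at 0.61 (adjusted p = 0.158). No tested cytokine was called: of 10 listed, 3 passed the filter.

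Of the 11 glucocorticoid targets, all tested, 5 rose and none fell on fasting, with a list median of 0.46, and 4 rose without replicate 3. Per1 rose by 2.22 (adjusted p = 1.99e-06), Fkbp5 by 1.92 (adjusted p = 1.08e-05), Pck1 by 1.57 (adjusted p = 5.38e-05) and Klf9 by 0.46 (adjusted p = 2.70e-04). On diet none rose and 2 fell, Zbtb16 by 1.48 (adjusted p = 0.0156) and Lpin1 by 1.18 (adjusted p = 0.0452), the latter at -1.24 (adjusted p = 0.0662) without replicate 3. Within fasted mice 4 of the 11 fell on HF, against 6.65% of all genes called there in either direction. Among them were Per1, by 1.45 (adjusted p = 0.017), and Fkbp5, by 1.58 (adjusted p = 0.00904). The same count fell without replicate 3, against 4.42% of all genes. For Per1 the difference between diets in the response to fasting was -2.24 (adjusted p = 0.04).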

How the data were processed

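RNA of 32 mice, all labelled liver, was measured by 3′ RNA sequencing (QuantSeq, single reads). The library labelled KO HF fasted replicate 4 held heart markers and was left out. WT LF fed replicate 2 was left out as an outlier, which the labels do not state. Per the labels and the study's methods, the authors mapped reads to GRCm38 with HISAT 0.1.5, sorted them with SAMtools 1.2 and counted them per gene with HTSeq 0.6.1p1 in union mode, and the deposited values are raw counts. The methods and the name of the table give different annotation releases. Symbols came from GENCODE on the same build for 19918 of 20076 identifiers. Groups and replicate numbers came from the labels; each replicate is 1 mouse.

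Members and lists were chosen with earlier results of these data known. Counts were tested with edgeR 4.0.16 (R 4.3.3; filterByExpr, TMM, quasi-likelihood with robust settings, 8 group means) on 30 mice, with Benjamini-Hochberg adjustment. Standard errors were taken as the fold change over the root of the F statistic. Alternatives included DESeq2 1.42.0, limma 3.58.1 (voom), lane, age and replicate block terms, and leaving out each mouse. Fits were tested on simulated data. The contrasts within one diet or one feeding state, and the fit without the 4 mice of equal Hpx count, were added after seeing the data. No reason for the equal counts was found in the labels or methods, and the counts were used as deposited. Exact tests used log2(CPM + 1). Among pairs of mice of 1 group none agreed within sampling noise (smallest chi-square per gene 3.89).

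Genes named are the members, per list up to 4 genes called on fasting and 3 on diet by smallest p, and the 5 closest by correlation. Contamination sums, cytokine and neutrophil genes, Acadm and Orm3 are given besides. Protein sequences were not used here. A result that the naming rule selected is not reported here.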

Additional observations from a re-analysis of the deposited data

Results flagged for a closer look

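Saa1 in KO LF fed replicate 4, at 349 CPM, stood apart from the other 3 mice of its group, which lay between 45.6 and 66.5 CPM. Orm2 in WT LF fasted replicate 3, at 0 CPM, stood apart from the other 3, between 1.88 and 2.03 CPM, a range that rests on 5 to 8 reads. Both exceeded the 95% limit of Dixon's test among 60 combinations of member and group of 4 mice, of which chance gives about 1 in 20. The groups of 3 mice, KO HF fasted among them, were not tested in this way.

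In WT LF fed replicate 2, which entered no comparison, Hpx stood at 3058 CPM in a normalization over all 32 mice, above the 30 mice used, which lay between 723 and 2925 CPM.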

How the results depend on the processing

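The precision of Lcn2, Saa3 and Orm2 is limited by few reads, and WT LF fed replicate 2, KO HF fasted replicate 4 and KO HF fasted replicate 3 decide several calls. With all 32 mice 0 members were called for fasting, 0 for diet, 0 for fasting on HF and 1 (Saa2) for diet in fasted mice. Leaving out each mouse in turn gave 1 to 1 members for fasting, 2 to 4 for diet, 0 to 1 for the diet by fasting difference, 1 to 2 for fasting on LF, 0 to 2 for fasting on HF, 4 to 5 for diet in fasted mice, and 0 for the genotype comparisons and for diet in fed mice. The diet by fasting difference had 2 members with DESeq2, 1 with limma voom and 1 with age as a term. Fasting on LF had 2 with DESeq2. Fasting on HF had 0 with limma voom, lane, age or the replicate block. Diet in fasted mice had 3 with limma voom and 3 with at least 10 counts in every mouse. That filter left Lcn2 and Saa3 untested, as they fell to 1 and 9 reads in single mice. Shares of all genes called are not given here for these alternative fits, so that a count can differ because a fit called more or fewer genes of any kind. Apart from the members left untested by that filter, the causes were not tested.

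Averaged fasting values changed sign, none of them called, for Saa1 (-0.02 with limma voom; -0.36 to 0.43 leaving out 1 mouse), Saa3 (-0.209 to 0.052), Lcn2 (-0.105 with all 32 mice; -0.017 to 0.599), Hpx (-0.155 with all 32 mice; -0.051 to 0.115) and Apcs (0.025 with lane; -0.313 to 0.065). For diet this held for Hpx (-0.06 with all 32 mice) and Apcs (-0.023 to 0.355), and for genotype for Hpx (-0.13 with all 32 mice) and, without KO HF fasted replicate 3, for Hpx (-0.025) and Saa2 (-0.224), which ran up to 0.141 and 0.316 leaving out other mice. Without the 4 mice of equal Hpx count, over 26 mice, Hpx stood at 0.03 for fasting, 0.16 for diet and 0.14 for genotype.

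Replicate numbers were not taken to pair mice. Of 98 same-numbered pairs across groups, 3 had a correlation of residuals over 0.1 (median 0.006). Pairs with different numbers were not compared, and replicate number partly followed lane. With the replicate block Saa1 was called on diet at 1.35 (adjusted p = 0.0402), and 3 members were called there. The share of all genes called in that fit is not given here, so that this count has no background beside it.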
